A study of Mus musculus with 6 samples.

Results

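The genes described here make cholesterol or bring it into the cell. They are 29 genes, given as a list of names that was chosen with earlier results of these data known. All were found by symbol among the 27179 genes of the table. A total of 20 encode enzymes from acetyl-CoA to cholesterol, 5 control the pathway and 4 move sterol across or between membranes. All 29 passed the filter on low values, which asked for a value of 10 or more in 3 or more of the 6 libraries. The list does not hold every gene of the pathway, and genes outside it are not analysed here unless named. The libraries came from organoids, which are budding epithelial cultures grown in Matrigel from the small intestine of wild-type mice. After 17 h of exposure, 3 libraries were made from cultures given 1e-07 M T3 (the active form of thyroid hormone) and 3 from cultures given vehicle alone. All cultures were kept in the same growth medium, Intesticult. The labels name neither the number of mice nor separate cultures behind the libraries. A p-value here therefore measures the spread between these libraries only, and that spread may be technical.

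Cholesterol is built in the endoplasmic reticulum. Acetyl-CoA units are joined and reduced to mevalonate, which is turned into prenyl diphosphates, squalene and lanosterol. Lanosterol is then trimmed and rearranged to cholesterol. The transcription factor SREBP2 drives the enzymes of this route. When sterol is plentiful, the escort protein Scap and the Insig proteins hold SREBP2 in the endoplasmic reticulum, and the enzymes are transcribed less. Enterocytes also take cholesterol from the gut lumen, through the brush border protein Npc1l1, and internalised sterol leaves lysosomes through Npc2 and Npc1.

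Promoters of these genes are known for binding sites of SREBP2 and of its partner NF-Y, which binds CCAAT. The RefSeq promoter table, on GRCm38.p6, held 24 of the 29 genes and lacked Fdps, Fdft1, Sqle, Stard4 and Npc1. The 250 bases before each start site were searched on both strands. For a gene with several start sites, a match at any of them was counted. CCAAT was found for 22 of 24 members (91.7%), against 40.9% of 10193 tested genes in the table and 42.8% of those called higher. It occurred in 33.9% of all 32851 promoter windows. The members without it were Acat2 and Scap. GGGCGG, the Sp1 motif, was found for 21 of 24 members (87.5%), against 63.7% of tested genes and 32.7% of all windows. Pmvk, Ggps1 and Npc1l1 lacked it. The sterol regulatory element core TCACNCCAC occurred at Hmgcs1 alone (4.17% of members), against 1.23% of tested genes and 1.05% of all windows. AGGTCA, the half-site of nuclear receptors, was found for 4 members, namely Hmgcs1, Dhcr7, Insig1 and Npc1l1. That is 16.7% of members against 13.1% of tested genes and 14.0% of all windows. No member held 2 copies of it with 4 bases between them, an arrangement seen in 0.0152% of windows. CCAAT was also present at Mvk, Lss, Lbr, Insig1 and Npc2, none of which was called. The repeat contains the AGGTCA motif, and no other motif searched contains another. A match describes letters only, not a bound site. Only exact matches were counted, so a gene without one may still have a site that differs from the motif or lies outside the window.

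The windows of 5 members are shown to set the largest rises beside a gene that was not called. Hmgcs1 holds the sterol element, Msmo1, Sc5d and Npc1l1 rose most, and Acat2, which has no CCAAT, was not called. Each is written 5′ to 3′ on the strand of the gene and ends at the base before the start site. Capitals mark CCAAT, its reverse complement ATTGG, and the sterol element core. On the GRCm38.p6 build the windows are chr13:119690101-119690350 (plus strand), chr8:64733579-64733828 (minus), chr9:42264301-42264550 (minus), chr11:6230246-6230495 (minus) and chr17:12960726-12960975 (minus).
Hmgcs1: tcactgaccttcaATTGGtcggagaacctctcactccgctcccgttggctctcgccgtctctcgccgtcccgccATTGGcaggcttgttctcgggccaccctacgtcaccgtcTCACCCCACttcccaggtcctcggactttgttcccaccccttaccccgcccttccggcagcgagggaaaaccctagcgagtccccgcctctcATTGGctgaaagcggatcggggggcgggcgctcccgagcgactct
Msmo1: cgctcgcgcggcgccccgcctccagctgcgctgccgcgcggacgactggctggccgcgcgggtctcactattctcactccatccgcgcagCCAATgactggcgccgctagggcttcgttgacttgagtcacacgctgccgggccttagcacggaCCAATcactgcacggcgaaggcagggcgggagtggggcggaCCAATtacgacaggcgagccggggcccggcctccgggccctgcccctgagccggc
Sc5d: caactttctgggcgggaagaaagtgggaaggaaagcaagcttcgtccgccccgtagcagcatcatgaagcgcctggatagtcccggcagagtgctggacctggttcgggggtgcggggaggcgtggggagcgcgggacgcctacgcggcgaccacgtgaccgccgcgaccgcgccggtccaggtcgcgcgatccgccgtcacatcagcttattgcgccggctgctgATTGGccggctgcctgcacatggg
Npc1l1: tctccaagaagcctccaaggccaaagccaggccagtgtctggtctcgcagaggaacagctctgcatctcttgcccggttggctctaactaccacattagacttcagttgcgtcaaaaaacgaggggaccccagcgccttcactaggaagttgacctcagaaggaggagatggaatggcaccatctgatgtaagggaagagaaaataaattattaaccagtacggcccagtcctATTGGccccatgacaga
Acat2: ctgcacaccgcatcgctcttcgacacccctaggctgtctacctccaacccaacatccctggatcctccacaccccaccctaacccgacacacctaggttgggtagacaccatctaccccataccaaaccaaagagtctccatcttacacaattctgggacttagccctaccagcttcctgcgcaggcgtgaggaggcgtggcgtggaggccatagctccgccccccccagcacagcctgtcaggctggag
Hmgcs1 and Msmo1 each carry 3 CCAAT boxes, while Sc5d and Npc1l1 carry 1. In Hmgcs1 the sterol element starts 137 bases before the start site, between CCAAT boxes that start 176 and 45 bases before it. These distances are from the RefSeq start site that follows the window. The Hmgcs1 gene model used for the read values starts further downstream, at 119690462. The Mylip window also holds 3 CCAAT boxes, and Mylip was lower with T3. A relation between boxes and changes was not tested.

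Most enzymes of cholesterol synthesis rose with T3, by small factors, and the intestinal uptake gene Npc1l1 rose most. Npc1, Npc2 and Stard4, which carry sterol inside the cell, were not called higher. Of the 29 members 19 rose (65.5%) and 2 fell (6.90%) at an adjusted p under 0.05 in limma's moderated test over all 13052 genes tested. Over all genes tested 24.0% were called higher and 20.8% lower. The members were chosen with earlier results of these data known, so the contrast with these shares is descriptive only. Among the 8179 genes averaging at least 500 normalized reads, as 28 of the members do, the shares were 29.5% and 21.1%. The members' median log2 fold change was 0.27 (1.21-fold), and the median over all genes tested was -0.01. The T3 and vehicle libraries did not overlap for 18 members that were higher and 3 that were lower. Over all genes tested these shares were 28.4% and 26.5%. No member changed 2-fold or more on the fitted scale, and the median log2 fold change of members called higher, 0.31, was below that of all genes called higher, 0.36. The share of rises among all called genes depends on the scaling between libraries. It was 53.6% with the deposited scaling, 42.9% after upper-quartile scaling and 38.7% after scaling to equal column totals. With these scalings 19, 19 and 18 members were called higher, against 24.0%, 20.1% and 18.7% of all genes tested.

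**Figure D1:**
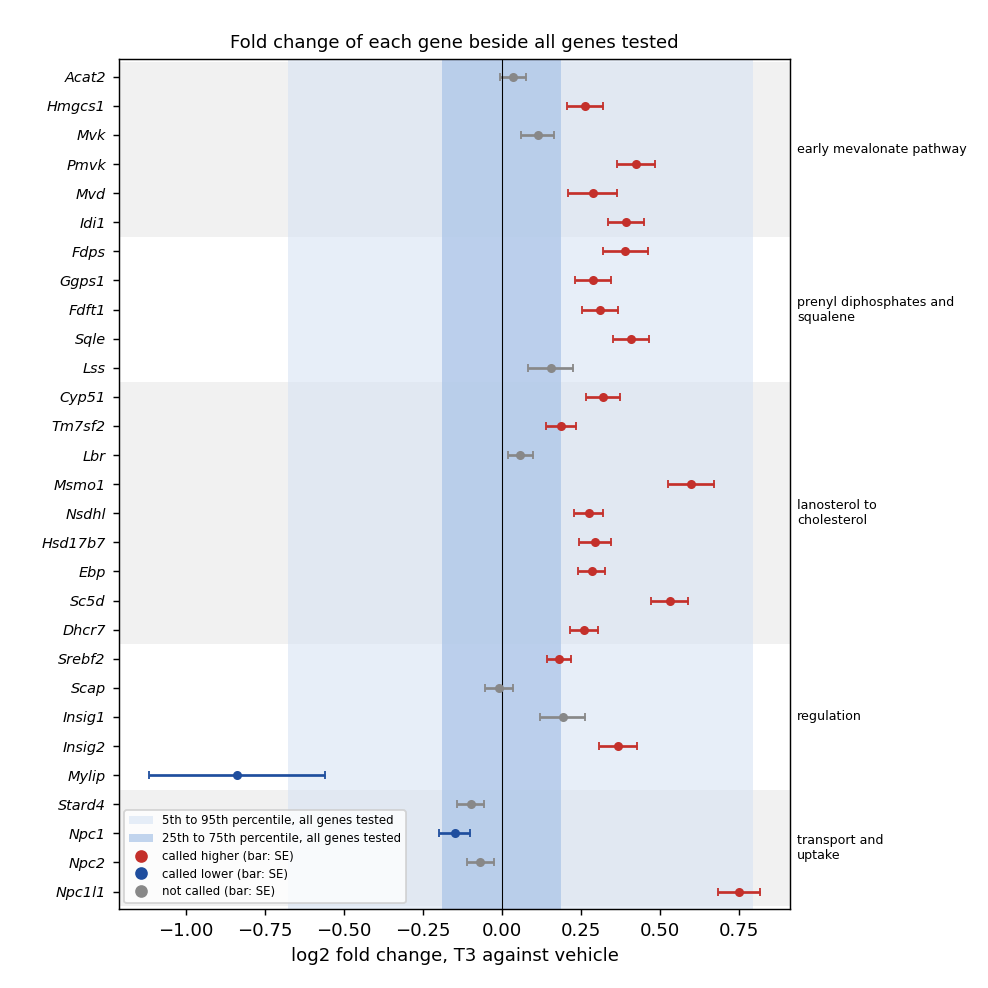
Fitted log2 fold change of each member, T3 against vehicle, in pathway order, with bars for the standard error and colours for the call. Bands show the range of all genes tested: 18 members lie above the 75th percentile of all genes, at 0.19, and Npc1l1, at 0.75, lies just inside the 95th, at 0.79.

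Column totals ran from 28197080 to 28611883 normalized reads with vehicle and from 29510422 to 29974091 with T3. Klf9, a direct target of thyroid hormone in many tissues, rose 6.08-fold. The summed level of 12 enterocyte markers was 107365 to 117786 with vehicle and 187113 to 232189 with T3, and 8 of them rose and 2 fell. All 8 crypt stem cell markers fell, and their sum went from 62252 to 70169 down to 28506 to 31741. For 4 Paneth cell markers, 2 of which rose, the sum was 60060 to 64726 and 95376 to 121047. For 5 goblet cell markers, 1 of which rose, it was 74168 to 91914 and 63357 to 101424. Tuft cell markers had 2 of 3 lower, with sums of 241 to 342 and 199 to 232. Enteroendocrine markers had 1 of 4 lower (8740 to 10759 and 7236 to 10525), and cycling markers 1 of 4 higher (44581 to 54842 and 48754 to 53904). Sums were 108272 to 111891 and 125203 to 128111 for 4 general epithelial markers, 3 of which rose. They were 81 to 127 and 82 to 86 for 7 fibroblast and muscle markers, of which only 1 was tested, and it was not called. For 6 immune markers they were 129 to 163 and 395 to 414, with 1 of 2 tested called higher. For 4 endothelial markers they were 27 to 47 and 19 to 26, with Kdr and Cdh5 at 0. The part of these marker shifts in the members' results was not tested, and in bulk RNA a change in the number of cells of a type cannot be told apart from a change in RNA per cell. T3 replicate 3 stands apart from the other T3 libraries. Its mean chi-square per gene was 13.9 and 14.9 against them, where T3 replicates 1 and 2 differed by 5.07. With vehicle, replicate 1 differed from replicates 2 and 3 by 8.12 and 9.92, and replicates 2 and 3 differed by 4.89.

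Levels of the members in vehicle libraries spanned a wide range when divided by exon length. Fdps, with 4789 ± 131 normalized reads per kb (SD, n = 3), was highest, followed by Hmgcs1 at 4481 ± 114, Insig1 at 3686 ± 41.7 and Msmo1 at 3255 ± 129. The place of Fdps is uncertain. Most of its sequence is shared with other gene models, and the effect on its level was not measured. The next, Npc2 (2881 ± 62.6), Cyp51 (2858 ± 41.6) and Sqle (2831 ± 21.6), had overlapping vehicle libraries, so their order is not resolved. The lowest were Hsd17b7 at 349 ± 7.87, Ggps1 at 249 ± 2.77, Insig2 at 239 ± 10.5, Npc1 at 178 ± 2.62 and Mylip at 17.1 ± 3.48 per kb. The vehicle libraries of Ggps1 and Insig2 overlapped on this scale. All other members lay between 431 and 2351 per kb.

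**Figure D2:**
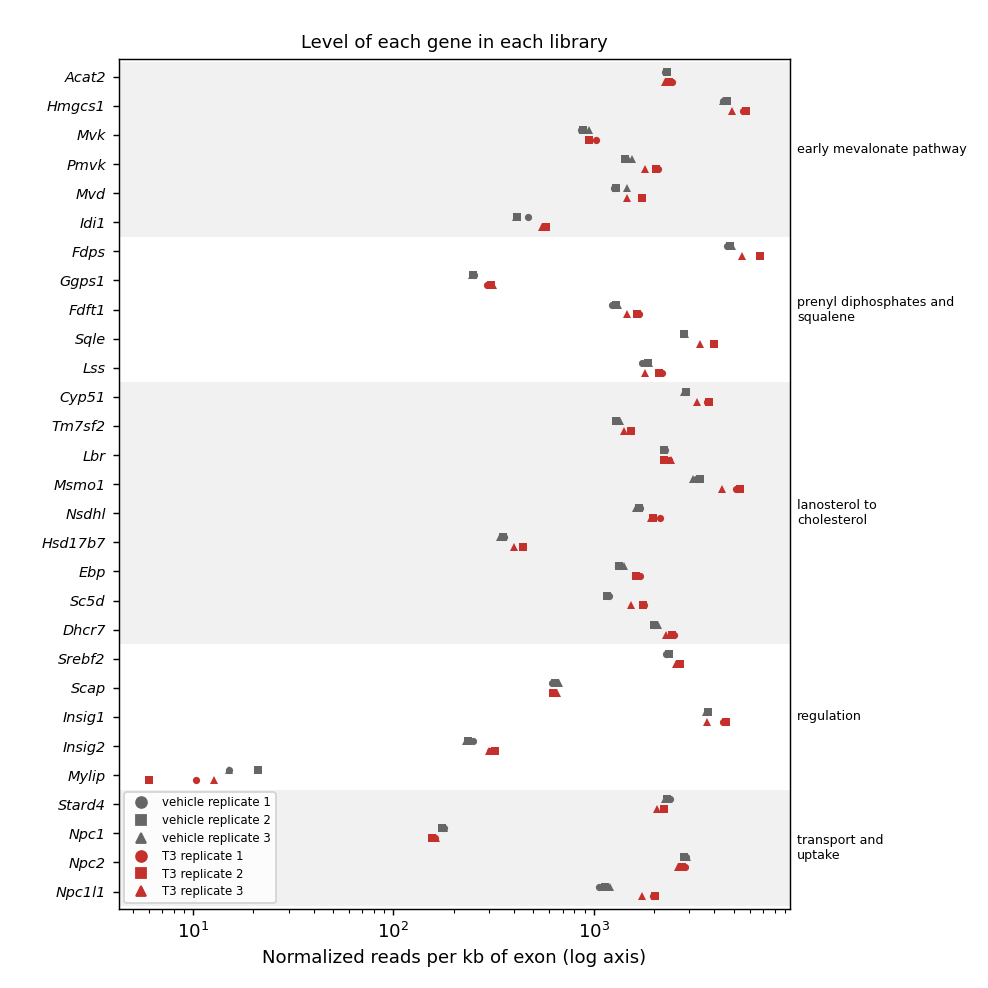
Normalized reads per kb of exon for each member in each of the 6 libraries, on a log axis, with vehicle in grey and T3 in red. In vehicle libraries the means run from 17.1 per kb for Mylip to 4789 for Fdps.

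The first steps, from acetyl-CoA to isopentenyl diphosphate, rose in 4 of 6 genes (66.7%, against 24.0% of all genes tested). Hmgcs1, the cytosolic synthase that makes HMG-CoA (gene on chromosome 13, 119690462 to 119708077, 11 exons), stood at 14543, 15142 and 14452 normalized reads in vehicle replicates 1 to 3. In T3 replicates 1 to 3 it stood at 18152, 18800 and 16109. All T3 libraries were above all vehicle libraries, a rise of 1.20-fold (log2 0.26 ± 0.06 SE, adjusted p = 0.00469). Pmvk, phosphomevalonate kinase, went from 2184, 2149 and 2343 to 3161, 3086 and 2726. All T3 libraries were above the vehicle libraries, at 1.34-fold (log2 0.42 ± 0.06, adjusted p = 0.000378). Idi1, the isomerase that makes dimethylallyl diphosphate, rose 1.31-fold from 1346, 1189 and 1174 to 1626, 1648 and 1586. Idi1 shares 21.3% of its 50-base stretches with Gm13502, so part of its level is uncertain. Mvd, the decarboxylase before it, rose 1.22-fold (adjusted p = 0.0134), but its groups overlapped, with 2720 in T3 replicate 3 below 2744 in vehicle replicate 3. That call was lost without T3 replicate 1 (adjusted p = 0.0605), without T3 replicate 2 (0.0507) and with a variance model without a trend (0.0595). Mvk, mevalonate kinase, was at 1494 ± 74.3 with vehicle and 1616 ± 70.2 with T3 (adjusted p = 0.109, but 0.0491 without vehicle replicate 3). Acat2, the cytosolic thiolase that joins acetyl-CoA units, was at 4785 ± 54.6 and 4908 ± 208. Its log2 difference was 0.04 with a 95% interval from -0.06 to 0.13 (adjusted p = 0.509). Acat2 shares 45.9% of its 50-base stretches with Acat3, which was listed at 2 to 7 normalized reads, so its level is uncertain.

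The middle steps build farnesyl diphosphate, squalene and lanosterol, and 4 of 5 genes rose (80%, against 24.0% of all genes tested). Fdps, farnesyl diphosphate synthase, went from 6794, 7024 and 7173 to 9751, 9856 and 8019, a rise of 1.31-fold (log2 0.39 ± 0.07, adjusted p = 0.00183). Fdps shares 86.4% of its 50-base stretches with other annotated genes, mainly Gm43738 (77.3%), a protein-coding gene model over the same locus. No other gene of the deposited table overlapped the exons of Fdps. How far the shared sequence affects its level was not measured. Sqle, squalene epoxidase, a rate-limiting oxygen-dependent step (chromosome 15, 59315092 to 59331193), stood at 7768, 7726 and 7843 with vehicle. With T3 it stood at 10758, 10931 and 9341, 1.33-fold higher (log2 0.41 ± 0.06, adjusted p = 0.000342). Vehicle libraries of Sqle lay within 117 reads of each other, and every T3 library was at least 1498 above them. Fdft1, squalene synthase, rose 1.24-fold from 3677 ± 144 to 4565 ± 337 (adjusted p = 0.00171). Its exons overlap those of Ctsb on the opposite strand over 774 bases (27.0% of its exon length), and 10.9% of its 50-base stretches are shared with Gm6781. Ctsb averaged 18041 with vehicle and was 1.15-fold higher with T3 (adjusted p = 0.0121). Reads of the pair cannot be told apart there unless the counting used strand, which is not stated.

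Ggps1 makes geranylgeranyl diphosphate, which leaves the sterol route for protein prenylation. It was at 598, 590 and 585 with vehicle and at 693, 725 and 748 with T3, 1.22-fold higher (adjusted p = 0.00246). Among the 19 genes that rose it alone did not have its lowest T3 value in replicate 3. Lss, lanosterol synthase, stood at 5376, 5766 and 5876 with vehicle and at 6833, 6575 and 5584 with T3. T3 replicates 1 and 2 were above every vehicle library, while replicate 3 lay within the vehicle range. The difference was not called (log2 0.15 ± 0.07, adjusted p = 0.107), but without T3 replicate 3 Lss was called higher (log2 0.24, adjusted p = 0.0029).

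From lanosterol to cholesterol 8 of 9 genes rose (88.9%, against 24.0% of all genes tested). This segment held the largest rises among the enzymes. Msmo1, the sterol C4 methyl oxidase (chromosome 8, 64718145 to 64733578, 6 exons), was at 5928, 6177 and 5705 with vehicle and at 9309, 9804 and 7931 with T3. Every T3 library exceeded every vehicle library, a rise of 1.51-fold (log2 0.60 ± 0.07, adjusted p = 0.000119). Sc5d, the sterol C5 desaturase (chromosome 9, 42254177 to 42264300), went from 2672, 2611 and 2610 to 4010, 3979 and 3443, a rise of 1.44-fold (log2 0.53 ± 0.06, adjusted p = 6.66e-05). Nsdhl and Hsd17b7, which complete removal of the C4 methyl groups after Msmo1, rose 1.21-fold and 1.23-fold (adjusted p = 0.00105 and 0.00121). Cyp51, the demethylase that acts on lanosterol, rose 1.25-fold from 12441 ± 181 to 15550 ± 1187 (adjusted p = 0.0012). Ebp, the isomerase of the sterol double bond, rose 1.22-fold and Dhcr7, which reduces 7-dehydrocholesterol, 1.20-fold (adjusted p = 0.000568 and 0.00128). None of these 7 genes had overlapping groups.

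Tm7sf2 and Lbr both encode sterol C14 reductases, and Lbr is also a receptor for lamin B in the nuclear envelope. Tm7sf2 went from 1916, 1903 and 2008 to 2277, 2274 and 2084, a rise of 1.14-fold (adjusted p = 0.0111). It was not called with equal column totals (adjusted p = 0.0538) or without T3 replicate 1 (0.0557). Lbr stood at 8098, 7993 and 7975 with vehicle and at 8432, 7997 and 8637 with T3, with a log2 difference of 0.06 (95% interval -0.03 to 0.15, adjusted p = 0.266). Lbr was the one member of this segment that was not called. The log2 ratio of Tm7sf2 to Lbr was -2.05 ± 0.05 and -1.92 ± 0.12, and its groups overlapped (exact permutation test, two-sided p = 0.2).

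Over the 20 enzymes 16 rose (80%) and 0 fell by limma, against 24.0% and 20.8% of all genes tested. At an unadjusted p under 0.05 in limma 0 were lower. The authors' deposited table also had 16 higher and 0 lower, and there 19.3% of all genes tested were called higher. The size of the rise differed between the T3 libraries. Summed over the 20 enzymes, T3 replicates 1, 2 and 3 were 1.28, 1.28 and 1.13 times the vehicle mean. Replicate 3 was the lowest T3 library for 18 of the 19 members that rose, against 57.4% of the 3135 genes called higher. It still lay above every vehicle library for 18 of those 19 genes, Mvd being the exception. Without replicate 3, 21 members were called higher, and without it and vehicle replicate 1 also 21, a setting chosen after the data were seen. The shares of all genes tested that were called higher were then 24.3% and 25.1%. Leaving out any 1 library gave 17 to 21 members, against 18.8% to 24.3% of all genes tested.

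**Figure D3:**
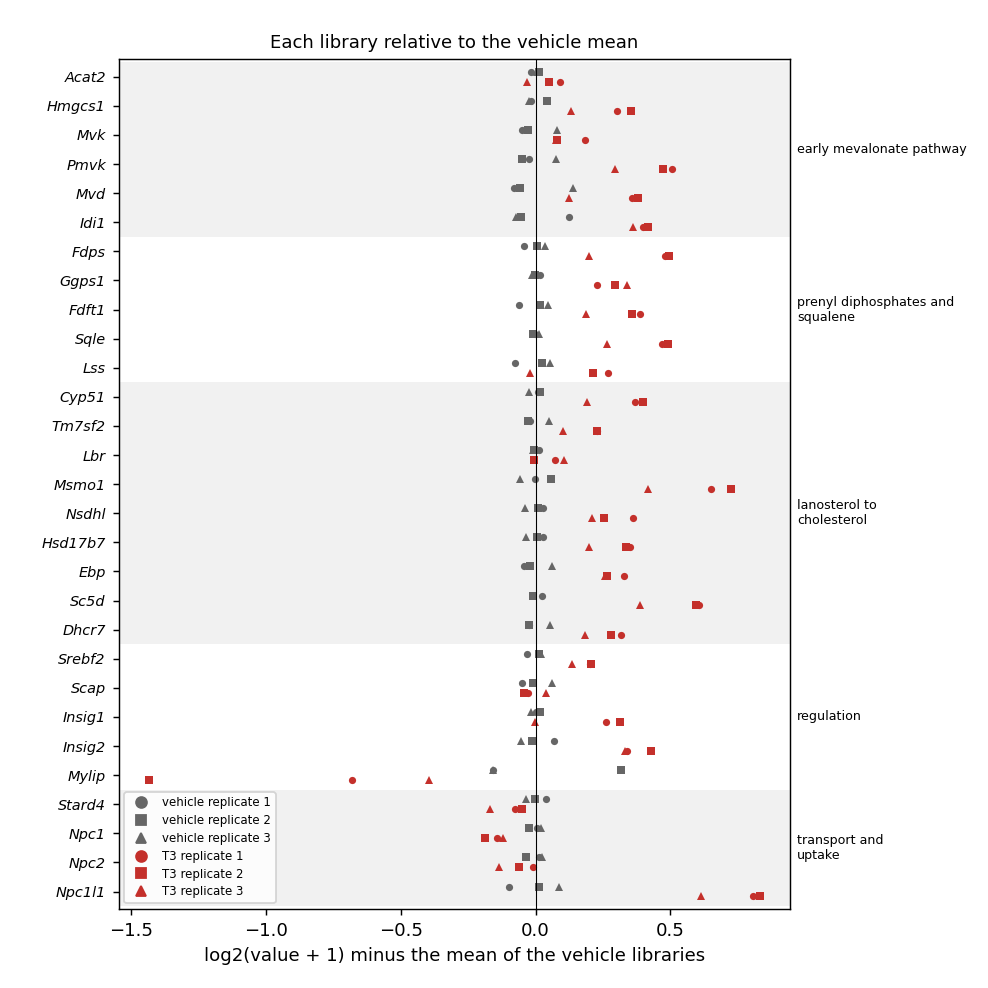
Each library of each member as log2(value + 1) minus the mean of the vehicle libraries, with grey for vehicle, red for T3 and marker shape for the replicate number. Red triangles, T3 replicate 3, lie closest to the vehicle libraries for 18 of the 19 genes that rose.

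Among the 5 genes that control the pathway 2 rose (40%) and 1 fell. Over all genes tested 24.0% rose and 20.8% fell. Srebf2, the gene of SREBP2 (chromosome 15, 82147269 to 82204960), was at 10499, 10832 and 10896 with vehicle and at 12357, 12378 and 11806 with T3. The groups were apart, at 1.13-fold (log2 0.18 ± 0.04, adjusted p = 0.00387). Scap, which escorts SREBP2 to the Golgi, was at 2749 ± 109 and 2729 ± 81.1. Its log2 difference of -0.01 had a 95% interval from -0.11 to 0.09 (adjusted p = 0.868).

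The Insig proteins anchor Scap in the endoplasmic reticulum, and Insig1 is itself a target of SREBP2. Insig2, the lower of the pair, rose 1.29-fold from 631, 596 and 579 to 762, 809 and 757 (adjusted p = 0.000836). Insig1 was at 9770, 9864 and 9644 with vehicle and at 11707, 12138 and 9736 with T3. T3 replicates 1 and 2 were above the vehicle libraries and replicate 3 lay among them. Over all libraries the log2 difference of 0.19 ± 0.07 missed the threshold (adjusted p = 0.0557), and it was 0.29 without T3 replicate 3 (adjusted p = 0.000287). In the authors' deposited table Insig1 passed (adjusted p = 0.0177). Within libraries the log2 ratio of Insig1 to Insig2 went from 3.95, 4.05 and 4.06 to 3.94, 3.91 and 3.68. These groups did not overlap, but 3 libraries against 3 allow no p below 0.1, which is what the exact test gave (two-sided p = 0.1, adjusted p = 0.2 over 8 ratios).

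Mylip, the ubiquitin ligase that degrades lipoprotein receptors and a target of the sterol-sensing LXR receptors, was near the floor of the data. It was listed at 45, 63 and 45 with vehicle and at 31, 18 and 38 with T3. The groups did not overlap and limma called it lower (1.79-fold, log2 -0.84 ± 0.28, adjusted p = 0.0338). Leaving out single libraries ended the call in 4 of 6 cases, with an adjusted p of up to 0.118 (without vehicle replicate 2).

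Of the 4 transport genes 1 rose and 1 fell, near the shares over all genes tested (24.0% higher and 20.8% lower). Npc1l1, the brush border importer of dietary cholesterol and the target of ezetimibe (chromosome 11, 6211011 to 6230245, 19 exons), stood at 4842, 5225 and 5498 with vehicle. With T3 it stood at 9058, 9226 and 7920, far above every vehicle library. This rise of 1.68-fold (log2 0.75 ± 0.07, adjusted p = 1.51e-05) was the largest of the 29 members, and 94.6% of all genes tested had a lower fold change. Npc1, its relative in the lysosome membrane, was at 927, 910 and 937 with vehicle and at 838, 811 and 851 with T3. The groups were apart, and Npc1 was called lower (1.11-fold, log2 -0.15 ± 0.05, adjusted p = 0.0315). This call was lost without each library in turn except T3 replicate 3, with an adjusted p of up to 0.108, and in the authors' deposited table (adjusted p = 0.132). Part of Npc1 (3.24% of its exon length) overlaps 3110002H16Rik on the opposite strand, which was 1.15-fold higher with T3.

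Npc2, the soluble partner that hands sterol to Npc1, was at 9397 ± 204 and 8961 ± 396 (log2 -0.07, adjusted p = 0.218). Stard4, a cytosolic sterol carrier regulated by SREBP2 in many cells, stood at 7139, 6934 and 6786 with vehicle and at 6593, 6705 and 6184 with T3. All T3 libraries of Stard4 were below all vehicle libraries, yet it missed the threshold (log2 -0.10 ± 0.04, adjusted p = 0.0858). With equal column totals Npc2 and Stard4 were both called lower (adjusted p = 0.0172 and 0.0073). Within libraries the log2 ratio of Npc1 to Npc1l1 went from -2.38, -2.52 and -2.55 with vehicle to -3.43, -3.51 and -3.22 with T3, the widest shift of the 8 ratios.

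Ratios within a library do not depend on scaling between libraries, so they show where members moved unequally. The log2 ratio of Sqle to Lss went from 0.46 ± 0.06 to 0.71 ± 0.05, and that of Msmo1 to Nsdhl from 0.69 ± 0.04 to 1.01 ± 0.13. Neither pair of groups overlapped (exact permutation p = 0.1 for each, adjusted p = 0.2). The ratios of Idi1 to Fdps and of Fdft1 to Ggps1 differed by 0.00 and 0.02 with overlapping groups (exact permutation p = 1 and 0.8).

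**Figure D4:**
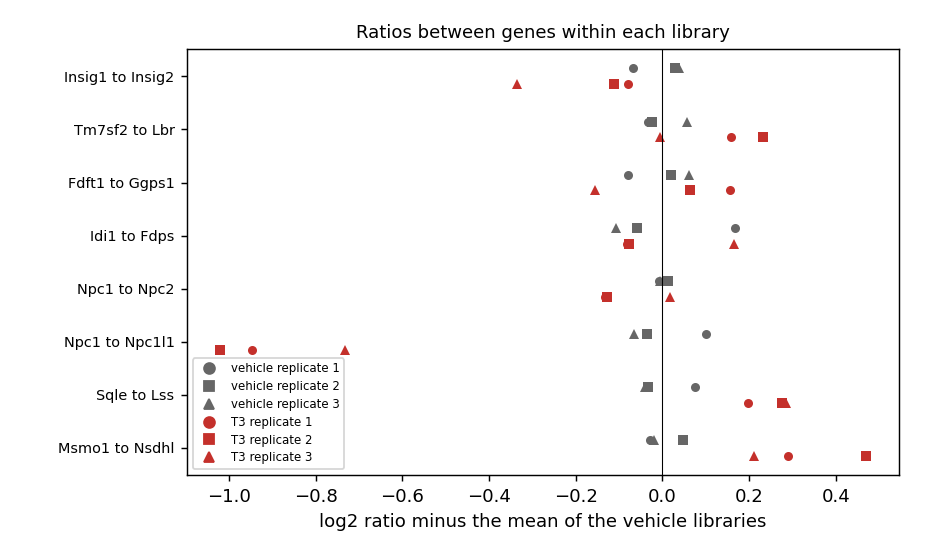
Log2 ratio between members within each library, minus the mean of the vehicle libraries, with grey for vehicle and red for T3. The groups are apart for 4 of the 8 ratios: Insig1 to Insig2, Npc1 to Npc1l1, Sqle to Lss and Msmo1 to Nsdhl.

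Other genes around the pathway were read from 5 further lists of 62 genes in all, and they did not share the direction of the enzymes. Of the 62, all tested, 14 rose and 16 fell, with a median log2 fold change of 0.00. These counts were close to the shares over all genes tested (24.0% higher and 20.8% lower). The counts of each list stand beside the same shares. For sterol sensing and protein degradation 3 of 16 rose and 4 fell. Rnf145, a ubiquitin ligase of the sterol pathway, rose 1.50-fold from 1936 ± 30.3 to 2904 ± 144. Erlin1, which takes part in degradation at the endoplasmic reticulum, fell 1.40-fold and Nr1h3, the LXR alpha gene, 1.41-fold. Nr1h2, the LXR beta gene, went the other way and rose 1.24-fold (adjusted p = 0.000262). It was named after its values were seen. Srebf1, the gene of SREBP1, was named after its values were seen and fell 1.20-fold from 10230 ± 399 to 8497 ± 157 (adjusted p = 0.000544), opposite to Srebf2.

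Genes of acetyl-CoA supply rose in 2 of 8 cases and fell in 2. Slc25a1, the mitochondrial citrate carrier that feeds cytosolic acetyl-CoA, rose 1.59-fold to 16576 ± 1773, and Pdhb, a subunit of pyruvate dehydrogenase, 1.92-fold. Among 10 electron donors and accessory proteins 1 rose and 3 fell. Erg28, a scaffold of the C4 demethylation enzymes, rose 1.25-fold from 2273, 2316 and 2301 to 2933, 2837 and 2846. Cyb5a, which passes electrons to sterol oxidases, fell 1.18-fold and Pgrmc2 1.15-fold.

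Of 12 genes of the prenyl branches 2 rose and 3 fell. Nus1, a subunit of the enzyme that makes dolichol, rose 1.21-fold, while Pdss1, which builds the ubiquinone tail, fell 1.21-fold and Fnta, a farnesyltransferase subunit, 1.17-fold. Sterol storage and movement had 6 of 16 genes higher and 4 lower, against 24.0% and 20.8% of all genes tested. Lipa, the lysosomal lipase that frees cholesterol from its esters, rose 1.45-fold and Osbpl9 1.37-fold. Stard5, a sterol carrier of the same family as Stard4, fell 2.07-fold from 1750 ± 62.8 to 848 ± 67.1.

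**Figure D5:**
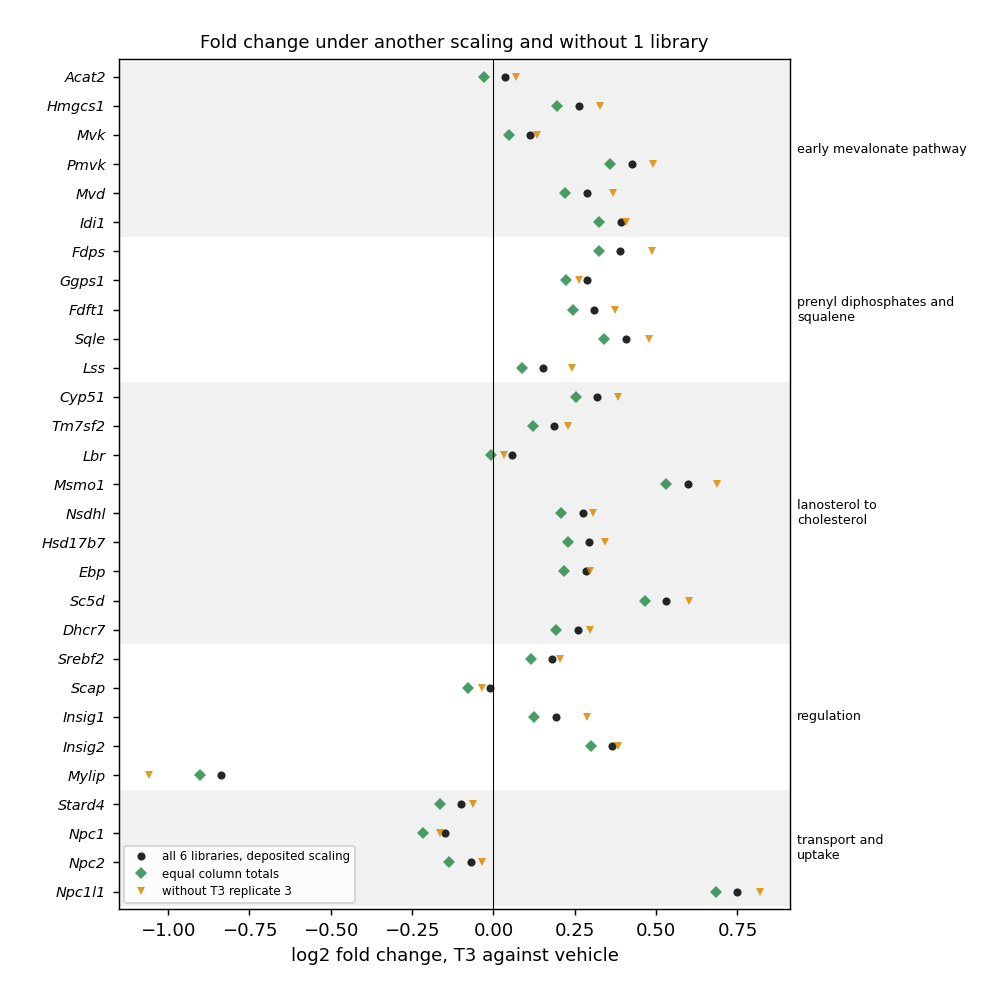
Fitted log2 fold change of each member with all 6 libraries and the deposited scaling (black), with equal column totals (green) and without T3 replicate 3 (orange). Equal totals move every member left, taking Acat2 from 0.04 to -0.03 and Lbr from 0.06 to -0.01, and the members' median goes from 0.27 to 0.21.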

How the data were processed

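RNA levels were taken from 6 libraries, 3 with T3 and 3 with vehicle. Each deposited sample column gives, per the file headers and values, a normalized score, namely gene-level reads that the authors scaled across libraries and then rounded. The deposited mean column differed from the mean of the 6 columns by at most 0.833. The submitters' processing notes list STAR, Subread and DESeq2 as the authors' tools, without versions, and the columns name the mm10 build per the file headers. The sources used here do not say how the authors counted stranded or shared reads. From the table, the authors' deposited log2 fold changes and adjusted p-values served as an alternative. Exon length is also a deposited column.

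The scaled values are not counts, so no count model was used. The plan named a count test for raw counts and limma for normalized values. limma 3.58.1 in R 4.3.3 was fitted to log2(value + 1) for the 13052 genes reaching 10 in 3 or more libraries, with a variance trend, group only and Benjamini-Hochberg adjustment over all of them. The threshold for a call was an adjusted p of 0.05, and 95% intervals use limma's moderated standard errors. Adding 1 before the log2 makes fold changes of low genes too small. The reads behind each value are unknown after rounding, so no counting interval is given. Ratios between members were tested by exact permutation over the 6 libraries.

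The members and lists were chosen with earlier results of these data known. The text names all members, up to 3 called genes with the smallest p in each further list, Klf9 and, chosen after their values were seen, Srebf1 and Nr1h2. One gene that this rule names is not reported here. Ufd1, Spring1 and Erg28 were matched by gene ID. Shared sequence was measured as the percent of 50-base stretches of each member's longest coding transcript found in transcripts of other genes (GENCODE M21, GRCm38). Bases after the start site matched the gene's own transcripts for 25 of 30 member promoters. The replicate numbers of the 2 groups are not known to pair the libraries.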

Additional observations from a re-analysis of the deposited data

How the results depend on the processing

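Alternatives covered 3 other scalings, 2 filters, 2 pseudocounts, 2 variance models, a stricter threshold, a replicate block, the authors' deposited result, each library left out, and 1 pair left out. Of the 29 members 17, all called higher, kept their direction and call in all 19 settings. The exceptions among those called higher were Mvd and Tm7sf2. The count of members called lower, 2, was the least stable. It was 4 with equal column totals and 4 after upper-quartile scaling, 1 without a filter, with a filter at 50 (where Mylip was not tested), without a variance trend and in the authors' table, and 0 at an adjusted p under 0.01. It ran from 0 to 2 without single libraries, and 3 members were lower at an unadjusted p under 0.05 in limma. Over all genes tested, 2716 of 13052 were called lower as deposited. The count was 3855 of 12997 with equal column totals and 3473 of 12997 after upper-quartile scaling. The members' median was 0.208 with equal column totals and 0.243 to 0.298 without single libraries. These scalings move all genes nearly alike, and the median of all genes tested was -0.00894 as deposited, -0.0548 after upper-quartile scaling and -0.0750 with equal totals. By that same shift, Acat2 went to -0.0102 with upper-quartile scaling and -0.0305 with equal totals, and Lbr to -0.00825 with equal totals. Scap ran from -0.0367 to 0.0198 without single libraries (0.0198 without vehicle replicate 3 and 0.00518 without T3 replicate 2). The change in the log2 ratio of Fdft1 to Ggps1 ran from -0.0449 to 0.110 and that of Idi1 to Fdps from -0.0792 to 0.0860. The cause of the changes without single libraries was not tested. Motif counts of members were the same in the whole 300-base windows. With the replicate block 20 members were called higher, Insig1 being the addition (adjusted p = 0.0401), and 0 lower, with Mylip at 0.0629 and Npc1 at 0.0582. In that fit 22.5% of all genes tested were called higher. Deviations of same-numbered libraries correlated at -0.0701, 0.0278 and -0.0568, so the numbers were not taken to pair them, and not every library correlated best with its own number. Rounding and 3 libraries per group limit what can be seen at low levels such as that of Mylip.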
